A study of Homo sapiens with 6 samples.

Results

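The EGF receptor family and its ligands were followed through 6 arrays of A549 cells, a human lung adenocarcinoma line. Members were the probe sets that the platform annotation assigned to AREG, EREG, HBEGF, TGFA, BTC, EGFR, ERBB2 or ERBB3 and to no other gene. In all 28 such probe sets were found, for 7 of the 8 genes, among 19777 genes with a probe set of their own. AREG had none and was not analysed here. The 3 stable lines had been made by lentiviral transfer of a tetracycline-inducible short hairpin RNA, which in shNTC has no target and in shCNOT3-1 and shCNOT3-2 is directed against CNOT3, by a different hairpin in each. Each line was grown for 72 hours either with doxycycline (DOX) at 1 ug/ml, which turns the hairpin on, or without it, and each of these 6 states was read on 1 array. All 3 lines share the A549 background and the inducible vector, and the labels do not say whether a line is a single clone or a pool. The comparison asked what loss of CNOT3, a subunit of the CCR4-NOT complex that removes poly(A) tails from mRNAs, does to the RNA levels of these genes.

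The family works at the cell surface. EREG (epiregulin), HBEGF (heparin-binding EGF-like growth factor), TGFA (transforming growth factor alpha) and BTC (betacellulin) are made as membrane-bound precursors, are released by proteases of the ADAM class and bind receptor tyrosine kinases. EGFR is the receptor of all of them, ERBB2 binds no known ligand and acts as a partner in dimers, and ERBB3 binds neuregulins, has little kinase activity of its own and recruits PI3 kinase. Active receptors signal through RAS and the kinase ERK, and many ligand mRNAs of this family are short-lived and are themselves induced by growth factor signals.

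The deposited intensity values are on a linear scale, with a median of 64.9 to 72.8 per array. Log2 values of the 12630 genes tested correlated at 0.954 to 0.983 between arrays. On its brightest probe set CNOT3 with DOX stood at 36.1% of its intensity without DOX in shCNOT3-1, at 20.5% in shCNOT3-2 and at 93.4% in shNTC. A second CNOT3 probe set past the filter went from 259 to 95.6 in shNTC, from 127 to 28.4 in shCNOT3-1 and from 195 to 41.1 in shCNOT3-2, log2 changes of -1.43, -2.13 and -2.22. On it the control was lower with DOX as well and the hairpins were nearly equal, so both the level in the control and the gap between the hairpins depend on the probe set. All 5 epithelial markers, among them KRT8 and KRT18, were above the filter on dim genes described below. The 6 fibroblast markers summed to 527 to 778 per array, the 3 measured leukocyte markers to 209 to 337 and the 3 endothelial markers to 144 to 362, against 83291 to 95299 for the epithelial ones. COL1A1, CD14 and PECAM1 were the markers of these other cells that lay clearly above the filter, while PTPRC and CDH5, which mark leukocytes and endothelium, were never above 38.0 and 17.3. For ACTB the 3' over 5' ratio, which bears on RNA integrity, went with DOX from 1.58 to 1.47 in shNTC, from 1.33 to 1.42 in shCNOT3-1 and from 1.36 to 1.45 in shCNOT3-2. It thus went one way in the control line and the other way in both knockdown lines, as EGFR did below. The GAPDH ratio did not: it went from 0.980 to 0.966 in shNTC, from 0.980 to 1.03 in shCNOT3-1 and from 1.09 to 1.05 in shCNOT3-2. The part of either in any result was not tested.

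Of the 7 genes measured, EREG, HBEGF and EGFR had both knockdown arrays (shCNOT3-1 and shCNOT3-2 with DOX) above the 4 other arrays, and none had both below them. The same was true of 16% of all 12630 genes tested, which is the background against which 3 of 7 is to be read. EREG differed most, TGFA least, and BTC, ERBB2 and ERBB3 differed in opposite directions in the 2 hairpins. No gene of the family passed the threshold of the test: in limma, with the line as a block and Benjamini-Hochberg adjustment over all genes, 0 of 7 had an adjusted p under 0.05, where 29 genes (0.23%) were called higher and 38 (0.301%) lower. CNOT3 itself, the targeted gene, was not called either on its brightest probe set (adjusted p = 0.0595 in limma). EREG and EGFR, 2 of the 7, had an unadjusted p under 0.05, both on the higher side, against 7.51% of all genes. The differences below are therefore described with their sizes and intervals and are not calls. Since nothing describes repeat cultures, the p-values reflect no more than how these arrays vary, and bulk RNA cannot tell more RNA per cell from more cells that express a gene.

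**Figure D1:**
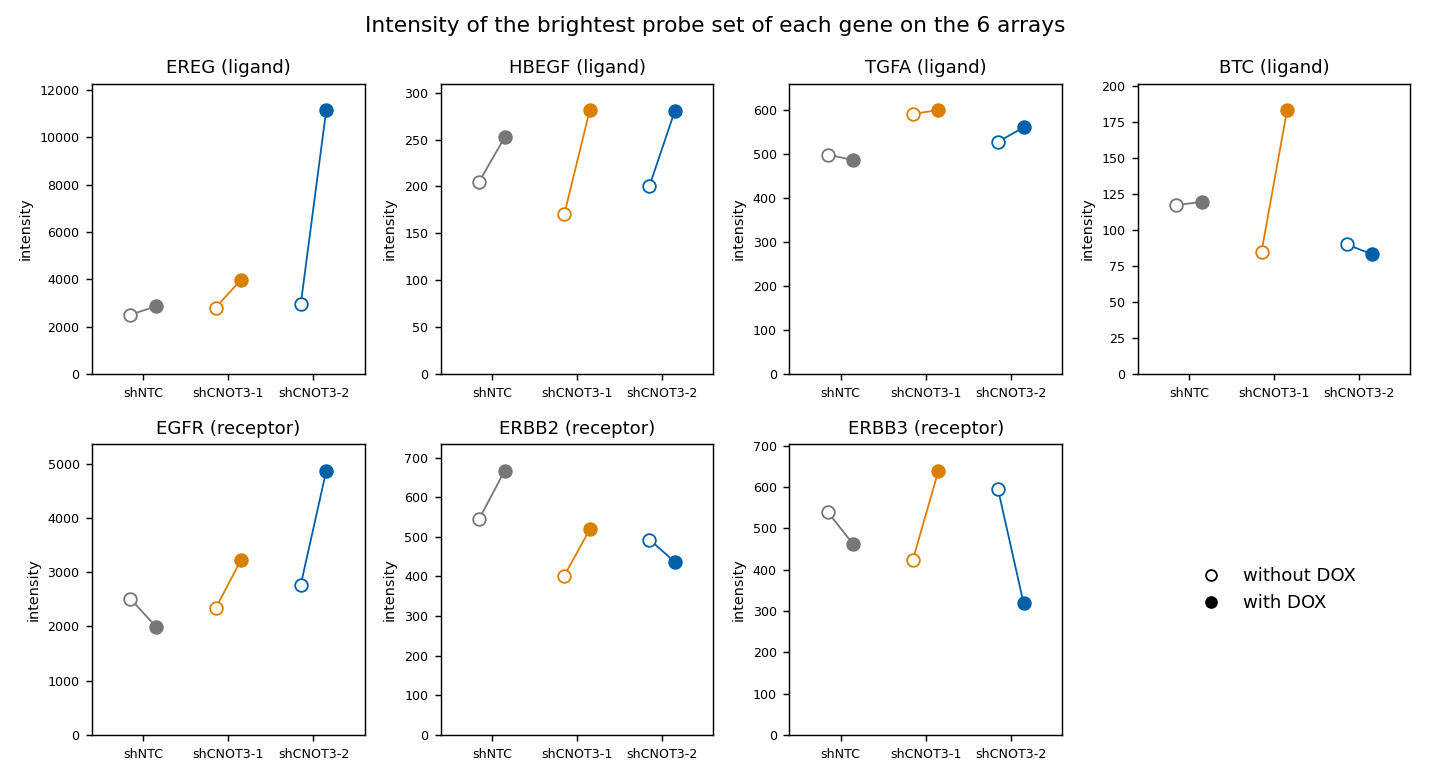
Intensity (linear axis from 0, arbitrary units) of the brightest probe set of each of the 7 genes, with 1 panel per gene and 1 point per array; open points are cultures without DOX, filled points with DOX, and a line joins the pair of a stable line. EREG in shCNOT3-2 goes from 2945 to 11147, while ERBB3 goes from 424 to 639 in shCNOT3-1 and from 595 to 319 in shCNOT3-2.

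The promoters of the 3 genes whose knockdown arrays stood above the others are shown because they differ in kind. Each sequence is the stretch of 250 bases before the annotated start of the gene, 5′ to 3′ on the gene's strand, from RefSeq on GRCh38.p14, in which 7 of the 8 genes had an entry and ERBB3 had none. Capitals mark matches, on either strand, to any of 6 motifs: the TATA box (TATAAA), the AP-1 site (TGANTCA), the core of the cAMP response element (TGACG), the GC box (GGGCGG), the CCAAT box (CCAAT) and the E-box (CACGTG).
EREG, chr4:74364895-74365144, + strand: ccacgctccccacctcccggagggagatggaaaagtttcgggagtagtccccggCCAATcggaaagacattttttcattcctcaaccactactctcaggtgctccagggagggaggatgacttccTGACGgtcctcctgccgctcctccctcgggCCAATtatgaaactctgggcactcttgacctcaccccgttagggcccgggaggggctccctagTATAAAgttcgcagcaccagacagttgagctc
HBEGF, chr5:140346604-140346853, - strand: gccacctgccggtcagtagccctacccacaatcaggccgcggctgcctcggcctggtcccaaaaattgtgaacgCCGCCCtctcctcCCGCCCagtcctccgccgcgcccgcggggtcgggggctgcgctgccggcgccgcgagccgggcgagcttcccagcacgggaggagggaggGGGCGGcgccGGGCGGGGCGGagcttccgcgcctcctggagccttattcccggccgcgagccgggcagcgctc
EGFR, chr7:55018767-55019016, + strand: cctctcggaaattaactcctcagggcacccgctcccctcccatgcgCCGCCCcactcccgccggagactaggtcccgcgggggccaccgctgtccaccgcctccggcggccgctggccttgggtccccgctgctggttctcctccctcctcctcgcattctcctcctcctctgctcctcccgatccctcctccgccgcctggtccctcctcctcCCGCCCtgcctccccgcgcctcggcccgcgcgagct
The EREG window held a TATA box at -32 from the start site, a cAMP element core at -125 and CCAAT boxes at -196 and -95. Among all 35116 promoter windows of this length, 10.7% held the TATA box, 21.2% that core and 32.0% the CCAAT box. HBEGF had 5 GC boxes, a pair of which overlap, and EGFR had 2, and neither of these windows held any of the other motifs. EGFR has 2 start sites in the table, and the window of the other one, not shown, held 2 TATA boxes and 2 AP-1 sites, with a G and C share of 38.8%. A GC box was present in 42.6% of all windows. The AP-1 site (6.57% of windows) and the E-box (6.34%) were in none of the 3 windows shown. The share of G and C was 58.0% for EREG, equal to the median of all windows, 76.4% for HBEGF and 73.6% for EGFR in the windows shown. These matches describe the letters and are no evidence of binding.

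EREG encodes epiregulin, a ligand of EGFR and ERBB4. Its brightest probe set read 2508 in shNTC without DOX and 2860 with it, 2804 and 3985 in shCNOT3-1, then 2945 and 11147 in shCNOT3-2. The 3 cultures without DOX lay close together, with an SD of 0.12 on the log2 scale (n = 3), and both knockdown arrays stood above them and above shNTC with DOX. Log2 changes with DOX were 0.19 in shNTC, 0.51 in shCNOT3-1 and 1.92 in shCNOT3-2, so the second hairpin gave a 3.78-fold difference and the first 1.42-fold. The change in shCNOT3-2 ranked 68th from the top among the 12630 genes, that in shCNOT3-1 1875th and that in shNTC 3493rd. Together the hairpins averaged 1.21 ± 1.00 (SD, n = 2): they agreed in direction and differed widely in size. The knockdown term was 1.21 with a 95% interval of 0.57 to 1.86 in limma and an adjusted p = 0.108 (unadjusted 0.00206). Fitted without the shCNOT3-1 line it was 1.92 with an adjusted p = 0.0158, the one setting in which a gene of the family passed, and without the shCNOT3-2 line 0.51 (adjusted p = 0.503). Each of these is the DOX change of 1 hairpin line alone, from which the change of shNTC is not subtracted. Beyond the change of shNTC, in a model with a DOX term, EREG was higher by 1.02 with an interval of -0.23 to 2.28 (adjusted p = 0.673). A second, dim probe set was under the filter's intensity on every array but shCNOT3-2 with DOX: it read 9.03 and 19.4 in shNTC, 14.99 and 34.5 in shCNOT3-1, then 9.60 and 82.8 in shCNOT3-2. It had the same order of arrays at the top, with log2 changes of 1.02, 1.15 and 2.98, though at such low intensities the sizes are uncertain.

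HBEGF, a ligand that binds heparan sulfate and signals through EGFR and ERBB4, was higher with DOX in every line, the control included. Its brightest probe set read 205 and 252 in shNTC, 170 and 281 in shCNOT3-1, then 200.2 and 281 in shCNOT3-2. The knockdown arrays were thus alike and only a little above shNTC with DOX. Log2 changes were 0.30, 0.72 and 0.49, with a hairpin mean of 0.60 ± 0.17 (SD, n = 2). The knockdown term of 0.60 had a 95% interval of -0.02 to 1.23 (adjusted p = 0.356 in limma). The second HBEGF probe set past the filter gave 106 and 171 in shNTC, 98.5 and 176 in shCNOT3-1, then 87.5 and 125 in shCNOT3-2. There the knockdown arrays overlapped the control: the log2 difference of shNTC was 0.68, between the hairpins' 0.83 and 0.51. The other 2 HBEGF probe sets never exceeded 21.5 and gave no usable direction.

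TGFA, a ligand of EGFR alone, stood out by how little it differed. It read 498 and 485 in shNTC, 590.1 and 599 in shCNOT3-1, then 527 and 559 in shCNOT3-2 on its brightest probe set. The shNTC and shCNOT3-1 lines differed more from each other than the DOX states did within any line. Log2 changes were -0.04, 0.02 and 0.09, and the knockdown term was 0.05 with a 95% interval of -0.42 to 0.53 (adjusted p = 0.945 in limma). The next TGFA probe set, just below the filter at a mean log2 of 5.94 against a limit of 5.96, read 126 and 88.5, 71.0 and 80.1, and 12.2 and 61.0 in the same order of lines. Its log2 change of 2.23 in shCNOT3-2 comes from the low value without DOX.

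BTC, a ligand of EGFR and ERBB4, stood apart on 1 array. Its brightest probe set read 117 and 119 in shNTC, 84.8 and 183 in shCNOT3-1, then 90.0 and 83.1 in shCNOT3-2. Only shCNOT3-1 with DOX stood apart, and shCNOT3-2 with DOX was the lowest of all 6. Log2 changes were 0.03, 1.10 and -0.11, so that the hairpin mean of 0.49 ± 0.86 (SD, n = 2) describes neither hairpin. The interval of the knockdown term, -0.45 to 1.43, covers 0 (adjusted p = 0.639 in limma). The other BTC probe set was dim throughout, at 6.39 to 39.4, and gave 2.20 in shNTC, 1.96 in shCNOT3-1 and -2.03 in shCNOT3-2. EREG and BTC are near neighbours on chromosome 4, where RefSeq's order of protein-coding genes is EPGN, EREG, AREG and BTC. On the brightest probe sets their pattern over the arrays differed: EREG was highest in shCNOT3-2 with DOX and BTC in shCNOT3-1 with DOX. The lowest BTC reading, 83.1 in shCNOT3-2 with DOX, was close to 84.8 in shCNOT3-1 without DOX.

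EGFR, on its brightest probe set, read lower with DOX in shNTC and higher with it in each shCNOT3 line. The readings were 2511 and 1994 in shNTC, 2334 and 3231 in shCNOT3-1, then 2767 and 4872 in shCNOT3-2. Both knockdown arrays lay above the 4 others, and shNTC with DOX was the lowest. Log2 changes were -0.33, 0.47 and 0.82, a hairpin mean of 0.64 ± 0.25 (SD, n = 2). The knockdown term of 0.64 had a 95% interval of 0.22 to 1.07 and an adjusted p = 0.179 in limma (unadjusted 0.00724). Measured beyond the change of shNTC the difference was 0.98 with an interval of 0.24 to 1.71 (adjusted p = 0.480, unadjusted 0.0152). In that model 0 of 12630 genes (0%) passed in limma, while 1059 had an unadjusted p under 0.05, EGFR being the only 1 of the 7 genes among them.

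EGFR is also the gene with the most probe sets, 9, of which 4 were above the filter, and these differ in part. One of the others read 962 and 1136 in shNTC, 921 and 1513 in shCNOT3-1, then 880.5 and 1597 in shCNOT3-2. Here too both knockdown arrays were above the rest, but the control was also higher with DOX, by 0.24, against 0.72 and 0.86 in the hairpins. In a fit of all 23192 single-gene probe sets past the filter, in which 42 (0.181%) were called, this one gave a term of 0.79 with a 95% interval of 0.34 to 1.23 (adjusted p = 0.148 in limma). On another the readings were 1054 and 796, 1384 and 1294, and 1218 and 1985 in the same order, so that shCNOT3-1 was slightly lower with DOX (-0.10) and shCNOT3-2 higher (0.70). On the dimmest of the 4 they were 129 and 98.6, 61.7 and 107, and 78.4 and 108, with changes of -0.38, 0.79 and 0.45 and with shNTC without DOX the highest array. All 4 had a positive mean of the hairpins, 0.30 to 0.79, and 3 of 4 were lower with DOX in shNTC. The 5 dim EGFR probe sets had hairpin means of -0.77 to 0.46, and the nearest to the limit, at a mean log2 of 5.89, gave 0.90 in shNTC and -0.23 and -0.29 in the hairpins. Averaged over all 9 probe sets the EGFR term was 0.08 (adjusted p = 0.938), so the size reported for EGFR rests on the use of its bright probe sets.

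ERBB2, the partner receptor also known as HER2, was read by 1 probe set above the filter. It stood at 545 and 667 in shNTC, 402 and 519 in shCNOT3-1, then 493 and 436 in shCNOT3-2. The knockdown arrays lay inside the range of the others. Log2 changes were 0.29, 0.37 and -0.18, and the knockdown term was 0.10 with a 95% interval of -0.44 to 0.63 (adjusted p = 0.901 in limma). Its sign turned in the model with a DOX term, to -0.19. The other ERBB2 probe sets were dim, at 10.0 to 138, and had hairpin means of 0.21 and 0.11 against 1.00 and 2.30 in shNTC.

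ERBB3, the receptor that couples the family to PI3 kinase, differed in direction between the knockdown lines. Its brightest probe set read 539 and 462 in shNTC, 424 and 639 in shCNOT3-1, then 595 and 319 in shCNOT3-2. The knockdown arrays were the highest and the lowest of the 6. Log2 changes were -0.22, 0.59 and -0.90, which ranked 9171st, 1444th and 12127th from the top of 12630 genes. The second ERBB3 probe set repeated the split: 317 and 380 in shNTC, 251 and 370 in shCNOT3-1, then 257 and 157 in shCNOT3-2, with changes of 0.26, 0.56 and -0.71. Here shNTC went the other way from the first probe set, and shCNOT3-2 with DOX was again the lowest array. The other ERBB3 probe sets past the filter did not show it. On one the changes were 0.16, 0.40 and 0.59, and on the other, just inside the filter at 5.98, they were -0.21, -0.05 and 0.27. The knockdown term of the brightest was -0.15 with a 95% interval of -0.89 to 0.58 (adjusted p = 0.879 in limma), a mean that stands for neither hairpin. The difference between the hairpins was not tested for ERBB3 or BTC.

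**Figure D2:**
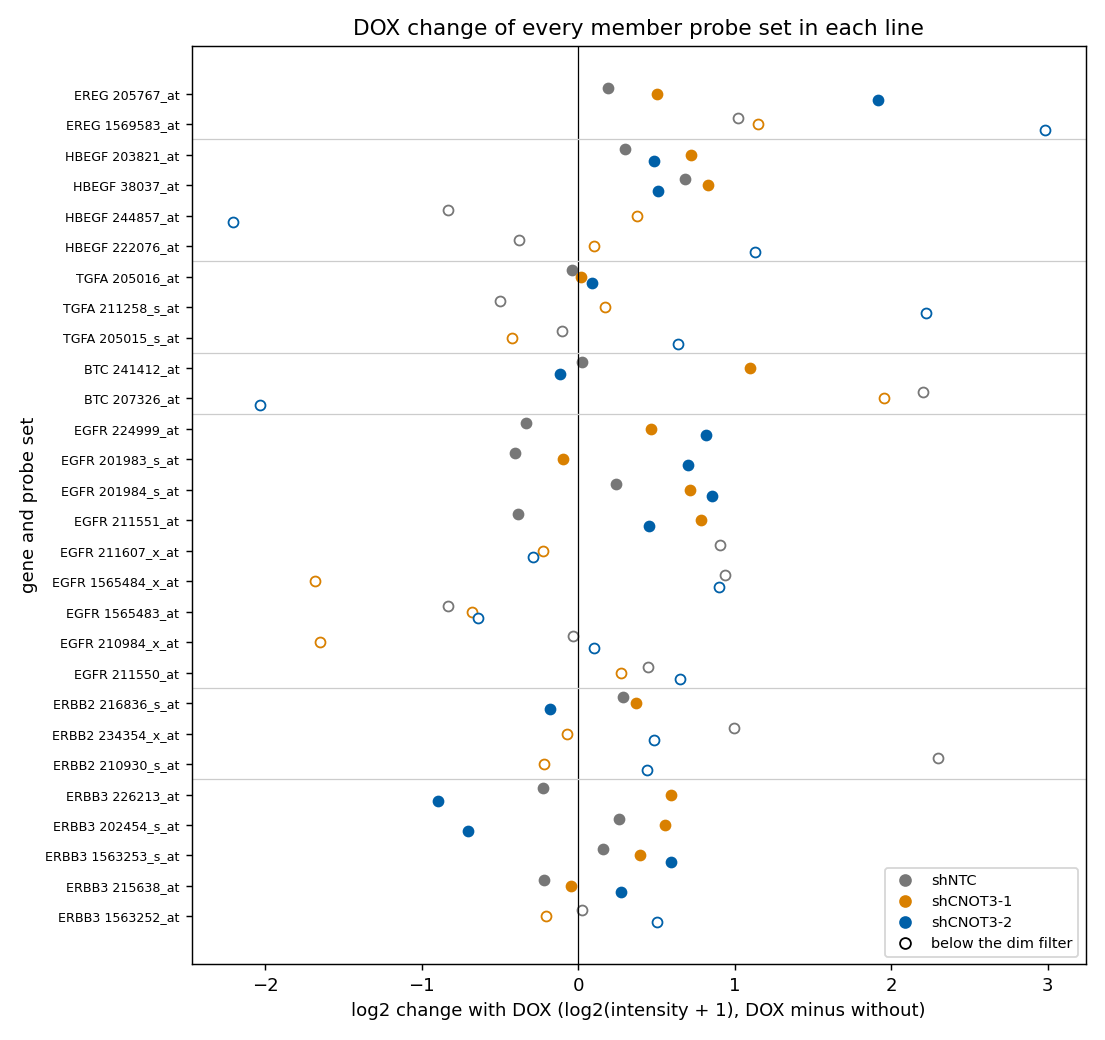
Log2 change with DOX (with minus without, on log2(intensity + 1)) for each of the 28 probe sets on the y axis, with 1 point per line; open points are probe sets below the filter on dim genes. EREG lies to the right in shCNOT3-2 on both of its probe sets (1.92 and 2.98), the 2 brightest ERBB3 probe sets split the hairpins, and dim probe sets scatter from -2.21 to 2.98.

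Over the 14 probe sets past the filter, the hairpins agreed on a higher value for 8, agreed on a lower value for 0 and differed in sign for 6. The matching shares over all probe sets were not counted. Probe sets of 1 gene are not independent, and EGFR and ERBB3 supply 4 each of the 14. By gene, 4 of 7 were higher in both hairpins, as were 33.2% of all genes tested, and none was lower in both, as were 26.9% of all genes. No gene was at least 2-fold higher or lower in both hairpins beyond the control, a rule that 0.649% of genes met upward and 0.428% downward, nor did one meet it at 1.5-fold. The median change of the 7 genes was 0.03 in shNTC, 0.51 in shCNOT3-1 and 0.09 in shCNOT3-2, where the medians of all genes tested were -0.01, 0.05 and 0.02. For the 4 ligands the medians were 0.11, 0.61 and 0.29, and for the 3 receptors -0.22, 0.47 and -0.18. On their brightest probe sets the 7 genes ranged from 0.02 to 1.10 in shCNOT3-1 and from -0.90 to 1.92 in shCNOT3-2. The share of all genes that were higher in shCNOT3-1 was not counted. In that line an EGFR probe set (-0.10) and an ERBB3 probe set (-0.05) past the filter were lower with DOX, and the rest were higher.

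**Figure D3:**
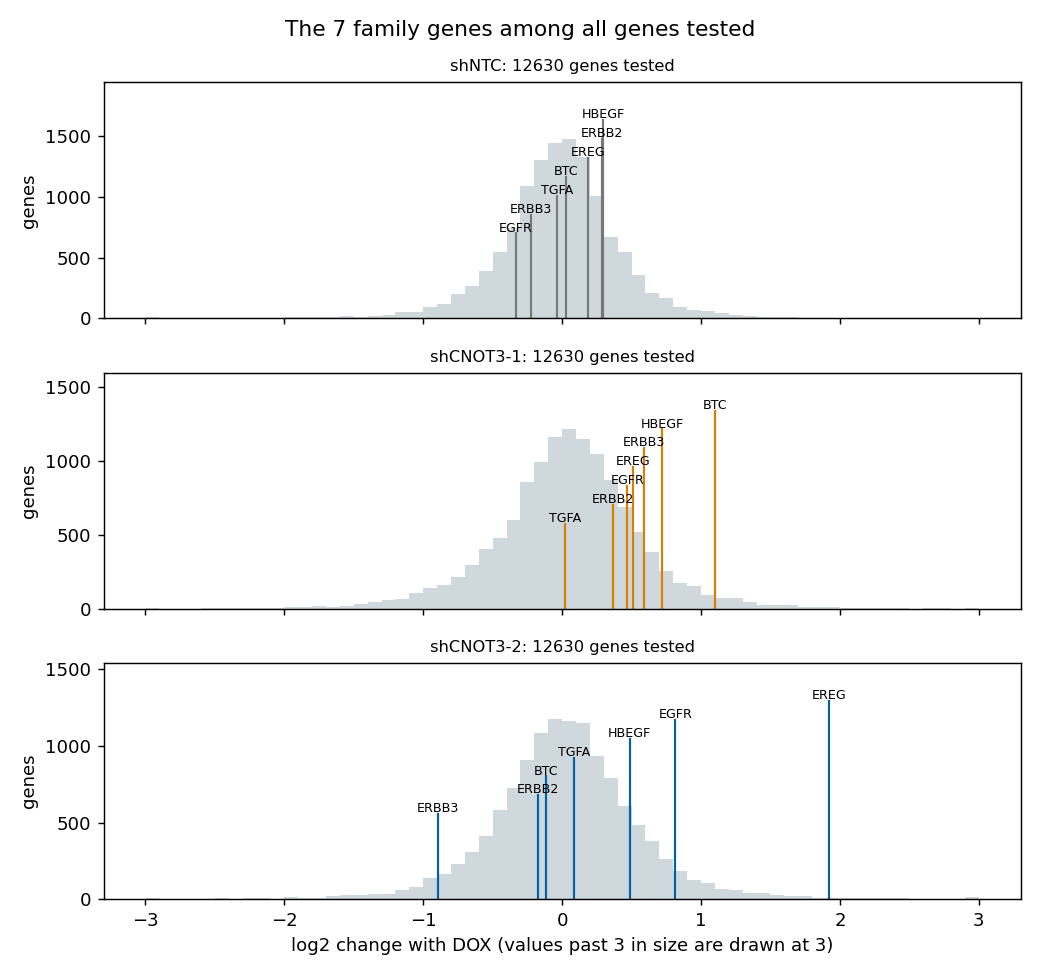
Number of genes (y axis) by log2 change with DOX (x axis), with 1 panel per line and the 7 family genes drawn as vertical lines of arbitrary height. In shNTC the 7 lie between -0.33 and 0.30, in shCNOT3-1 between 0.02 and 1.10, and in shCNOT3-2 ERBB3 at -0.90 and EREG at 1.92 lie far apart.

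Likeness was measured as Pearson's r of log2 values over the 6 arrays, which are 3 lines with 2 arrays each, and is a description only: 17 to 89 other genes had an r above 0.95 with a given family gene. Within the family, EREG and EGFR were the most alike at 0.92, while EREG and ERBB3 stood at -0.67 and TGFA and ERBB2 at -0.74. Outside it, EREG was most like SLC60A1 (0.997) and HKDC1 (0.991), a hexokinase family member. SLC60A1 was at 59.7 and 64.4 in shNTC, 61.3 and 90.3 in shCNOT3-1, then 63.3 and 208 in shCNOT3-2. EGFR was most like RPP25L and PUF60, a splicing factor, at 0.996 and 0.995. HBEGF was nearest to FNTA and ANKS3 (0.999 and 0.989), TGFA to ERN2 and GCC2-AS1 (0.990 and 0.984), and BTC to CYB5D1 and SHQ1 (0.999 and 0.997). For ERBB2 they were MSRB2 and MAN2A1 (0.993 and 0.986) and for ERBB3 NCAPD2 and DMTN (0.995 and 0.992). DMTN, which binds actin, had changes of -0.23, 0.57 and -1.10, side by side with -0.22, 0.59 and -0.90 for ERBB3.

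The rest of the pathway was read from a list of 63 genes in 5 groups, of which 52 were tested. In limma 1 of the 52 passed over all genes, DUSP5, on the higher side, where 0.23% of all genes were called higher and 0.301% lower. At an unadjusted p under 0.05, 10 genes were higher and 3 lower, against 7.51% and 7.06% of all genes. Of the 7 other ligands and receptors, NRG1 and NRG2 were above the filter, while EGF, NRG3, NRG4 and ERBB4 were too dim and EPGN was not analysed here. NRG1, neuregulin 1, a ligand of ERBB3 and ERBB4, read 2360 and 2112 in shNTC, 2397 and 2753 in shCNOT3-1, then 2002 and 3655 in shCNOT3-2. Like EREG it was highest in shCNOT3-2 with DOX and had both knockdown arrays above the rest, with a term of 0.53 ± 0.20 (SE, adjusted p = 0.272). NRG2, named as the other gene of its group that was tested, gave 0.23, -0.09 and -0.20 on its brightest probe set. Another NRG2 probe set past the filter went the other way in the hairpins, with 0.82 in shNTC, 0.47 in shCNOT3-1 and 0.31 in shCNOT3-2.

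The genes that release the ligands had a median change of -0.72 in shCNOT3-1, 0.17 in shCNOT3-2 and 0.13 in shNTC, a difference that was not tested and that does not describe every member. On their brightest probe sets ADAM9, ADAM12, ADAM17 and FURIN were lower with DOX in shCNOT3-1, while RHBDF1 and RHBDF2 were higher in both hairpins. FURIN was lower in shNTC too, at -0.41 against -0.96 in shCNOT3-1. The other ADAM9 probe sets past the filter gave -0.55 and 0.31 in shCNOT3-1. Those of these genes not under the rule for named genes are given after their values were seen. Of these 7 genes of ligand shedding, 1 was higher at an unadjusted p under 0.05 and 0 lower: RHBDF2, an inactive rhomboid that brings the sheddase ADAM17 to the surface, at 0.56 ± 0.22 (SE), against 0.16 in shNTC. ADAM17 itself, named after its values were seen, read 1815 and 2102 in shNTC, 1880 and 945 in shCNOT3-1, then 2205 and 2185 in shCNOT3-2. Its log2 change was thus -0.99 in shCNOT3-1 and -0.01 in shCNOT3-2, and its other 2 probe sets gave -1.17 and -0.45 in shCNOT3-1 and 0.00 and 0.34 in shCNOT3-2. Of 12 genes of receptor restraint and turnover, 4 were higher and 1 lower in the same sense. The higher ones were SH3KBP1, an adaptor of receptor endocytosis (0.42), ERRFI1, an inhibitor of the EGFR kinase (0.44), CBLB, a ubiquitin ligase (0.61), and RNF41, a ubiquitin ligase for ERBB3 (0.66). ERRFI1 and CBLB were higher in shNTC too, by 0.35 and 0.34, and CBLB gave no more than 0.31 in shCNOT3-2. Other probe sets of CBLB (-0.43), RNF41 (0.07 and -0.42) and SH3KBP1 (0.42 and -0.64) did not all agree.

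Among 17 adaptors and signalling genes tested, 0 were higher and 2 lower at an unadjusted p under 0.05. PIK3R1, a regulatory subunit of PI3 kinase, gave -1.29 and -0.47 in the hairpins and 0.54 in shNTC, with -0.42 in the mean of the hairpins from a second bright probe set. HRAS gave -0.59 and -0.26, and -0.08 in shNTC. The 14 genes of ERK output had 4 higher and 0 lower. DUSP5, a phosphatase of ERK in the nucleus, had a term of 2.31 ± 0.22 (SE, adjusted p = 0.00629 in limma). FOSL1, a subunit of AP-1, read 177 and 216 in shNTC, 252 and 469 in shCNOT3-1, then 154 and 503 in shCNOT3-2, a term of 1.30 ± 0.29 (SE, adjusted p = 0.0898). PHLDA1 and DUSP4, also induced by ERK, gave 0.53 and 0.42 on their brightest probe sets, against -0.20 and -0.09 in shNTC. The other PHLDA1 probe sets past the filter gave -0.38, -0.62, -0.57, 0.31 and 0.77 in shNTC. On the last of these the hairpins gave 0.63 and 0.75, no more than the control. For 7 of these 14 genes both knockdown arrays lay above all others, where the share among all genes tested was 16%. The list was chosen with earlier results of these data known, and the difference was not tested. The median of the group was 0.29 and 0.30 in the hairpins and 0.10 in shNTC. Its members SPRED1, an inhibitor of RAS signalling, and CCND1, cyclin D1, are named after their values were seen. On their brightest probe sets they were lower in both hairpins, by values of -0.16 and -0.49, and -0.24 and -0.36. A second SPRED1 probe set past the filter gave 0.04 and -0.28 in the hairpins and -0.48 in shNTC.

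**Figure D4:**
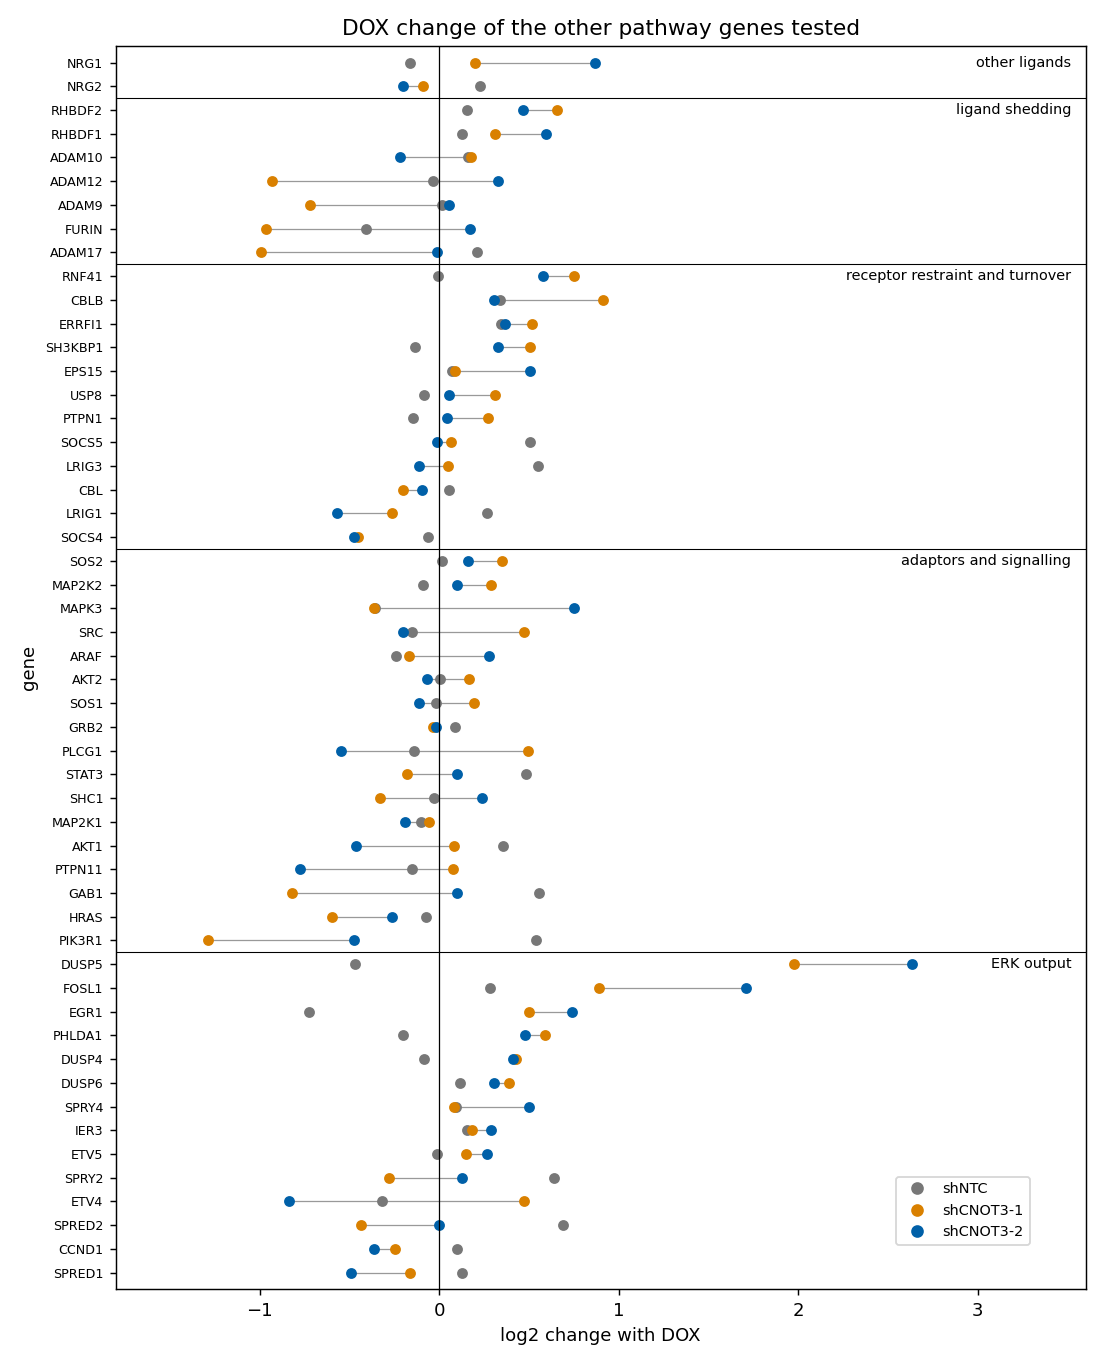
Log2 change with DOX for the 52 other pathway genes tested, in 5 groups, with 1 point per line and a grey line joining the shCNOT3 lines. In the ERK output group DUSP5 (1.98 and 2.63) and FOSL1 (0.89 and 1.71) lie farthest to the right, and among the shedding genes shCNOT3-1 is at -0.99 for ADAM17 where shCNOT3-2 is at -0.01.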

How the data were processed

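RNA was measured on 6 Affymetrix arrays of 3 stable A549 lines, each with and without DOX. The deposited values are linear intensity per probe set from MAS5, per the submitters' processing notes, with settings that no source used here gives. Every array had a mean of 500.1 once 2% was trimmed at each end. Precision is limited by the number of arrays, which have no read depth. Here 1 was added to each intensity before log2, so folds of dim genes are understated. Each gene was represented by its brightest probe set annotated to that gene alone (41097 of 54675 probe sets name 1 gene, 1801 several). For 41043 probe sets the symbol was taken from RefSeq by Entrez identifier, and how many symbols this changed was not counted. The filter left out genes whose mean log2 was below the median probe set (5.96, or 61.4 in intensity), and 12630 of 19777 remained. Limma 3.58.1 in R 4.3.3 (intensity trend, robust prior, 2-sided, Benjamini-Hochberg over all genes, threshold 0.05) fitted line as a block plus a knockdown term, with 2 residual degrees of freedom; each line's own cultures with and without DOX form the pairs, per the labels. That term averages the DOX changes of both shCNOT3 lines. A second model added a DOX term. The 2-fold rule asked for that size in both shCNOT3 lines, and a change of shNTC, the same way, that was below 0.5 of the smaller of them. The fit was tested on simulated data. Named were all members, CNOT3, up to 4 genes per pathway group by smallest unadjusted p under 0.05, and the 2 genes most like each member; exceptions are stated. Members, lists and alternatives were chosen with earlier results of these data known. Figures were drawn with matplotlib 3.10.9.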

Additional observations from a re-analysis of the deposited data

Results flagged for a closer look

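For EGFR the DOX change of both shCNOT3 lines was positive and that of shNTC negative, a difference of 0.98 on the log2 scale between the mean of the hairpins and shNTC. In the model with a DOX term this difference had an adjusted p = 0.480 in limma. The same held for TGFA, where the difference was 0.0901 and each change was under 0.1 in size (adjusted p = 0.963). For 3 genes the shCNOT3 lines went opposite ways: shCNOT3-2 minus shCNOT3-1 was -1.21 for BTC, -0.55 for ERBB2 and -1.49 for ERBB3. These differences between the hairpins were not tested. No group held enough arrays to look for an array far from the others.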

How the results depend on the processing

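EREG, HBEGF, TGFA and EGFR kept a positive knockdown term under every alternative that gave one. The ranges were 0.51 to 1.92, 0.31 to 0.72, 0.02 to 0.45 and 0.08 to 0.98. Settings that changed only the filter, the intensity trend, the prior or the genes fitted, or left out shNTC, could not move a term. Their unchanged sign is no support. HBEGF and BTC fell under the filter when probe sets were averaged. Terms near 0 turned: ERBB3 was 0.11 with averaged probe sets and 0.0714 in the model with a DOX term, and ERBB2 was -0.12 with no block for line and -0.19 with the DOX term. With 1 line left out, BTC ran from -0.11 to 1.10, ERBB2 from -0.18 to 0.37 and ERBB3 from -0.90 to 0.59. No family gene was called in any setting but 1: without shCNOT3-1 EREG was (0 to 1 calls over the lines left out), where the term is the DOX change of shCNOT3-2 alone and shNTC supplies the residual only. The median term of the family, 0.49, was 0.14 with averaged probe sets and 0.0869 to 0.51 with 1 line left out. The count of all genes called, 67, was 42 after quantile normalization, 42 in the fit of all probe sets, 28 with a prior that was not robust, 6 with averaged probe sets, 207 with no block, 39 to 64 with 1 line left out, and 0 with no filter, with no intensity trend or with the DOX term; the cause was not tested. Scaling moved the median change of all genes by -0.07 at most. No family gene met the 2-fold rule under the scalings, pseudocount, filters and probe set choices tried, or at 1.5-fold. The array design with 1 array per state limits all of this, and dim probe sets allow no reading of size.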

Other observations

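NRG1 was brighter than NRG2, the other ligand tested that is not a member. The 4 NRG1 probe sets past the filter can be set side by side. Log2 changes in shCNOT3-2 were 0.87, 1.48, 1.40 and 0.81, from the brightest to the dimmest. In shCNOT3-1 they were 0.20, -0.67, -0.30 and 0.14, and in shNTC -0.16, -0.49, 0.19 and 0.19. All 4 were thus higher with DOX in shCNOT3-2, the line where EREG was also highest, and split in the other lines.

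DUSP6, a cytoplasmic phosphatase of ERK, gave 0.39 and 0.31 in the hairpins on its brightest probe set and 1.38 and 0.74 on the next, against 0.12 and 0.40 in shNTC. The dimmest of its probe sets past the filter gave 4.24 and -0.16, against 1.24 in shNTC. ADAM12, a protease that can release HBEGF, gave -0.93 and 0.33 on its brightest probe set, and -0.66 and -0.83, and -0.77 and -1.23, on the next 2, where shNTC gave -0.04, -0.36 and -0.98. The dimmest past the filter gave 0.07 and -1.04, against 0.25 in shNTC. Both genes were chosen after their values were seen.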
